A study of Mus musculus with 9 samples.

Results

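The transcripts described here are those of 10 genes for the peptide and amino acid transporters of the small-intestinal enterocyte, measured by RNA sequencing in mouse duodenum. They were picked by gene symbol, each symbol matched 1 row of the count table, and they are 10 of its 48709 genes. The mice were 10-week-old C57Bl6 males, and no label names an altered gene. Vehicle (sunflower oil by the study's methods), 1,25D3 (calcitriol, the hormonal form of vitamin D), or 1,25D3 and ZK (ZK168281, an analog of 1,25D3 with a carboxylic ester that antagonizes the vitamin D receptor, VDR) was given by mouth, and the duodenum was taken 6 h later. There were 3 libraries labelled 1,25D3, 3 labelled 1,25D3 and ZK, and 3 labelled vehicle, each from a separate mouse by the study's figure legend. Each label also carries a number from 1 to 3 whose meaning is not stated, and the sources used here give no dose for these mice.

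Proteins of a meal leave the gut lumen as small peptides and free amino acids. Both cross the brush border on the apical side of the enterocyte by carriers that draw on proton or sodium gradients or that exchange 1 amino acid for another, and amino acids leave through the basolateral membrane toward the blood. On the apical side, *Slc15a1* encodes the proton-coupled carrier of small peptides, *Slc6a19* the main sodium-coupled carrier of neutral amino acids, *Slc36a1* a proton-coupled carrier of small amino acids and *Slc1a1* a sodium-coupled carrier of glutamate and aspartate. *Slc7a9* (light chain) and *Slc3a1* (heavy chain) form the exchanger that takes up cystine and the cationic amino acids, and loss of either causes cystinuria in humans. On the basolateral side, *Slc3a2* is the heavy chain shared by *Slc7a7*, which exports cationic amino acids, and *Slc7a8*, which exchanges neutral ones, while *Slc43a2* is a facilitative carrier of neutral amino acids.

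Total counts ranged between 22561400 and 41207455 per library. Levels are given as CPM, a gene's share of the library total, after scaling by the trimmed mean of M-values (TMM CPM). Checked against markers of its tissue, *Alpi* (intestinal alkaline phosphatase of enterocytes) was at 6204 to 7585 TMM CPM, and the ileal *Fabp6* and *Slc10a2* were at most 0.779 and 2.00 TMM CPM. The other 3 genes of the ileum list were expressed, *Gpa33* at 356.7 to 677.3, *Clec2h* at 260.3 to 565.6 and *Mep1b* at 862 to 1690 TMM CPM. *Cyp24a1*, a classical VDR target, ranged between 6420 and 7626 TMM CPM with number 2, between 2.465 and 9.12 with number 3, and between 2.50 and 6.134 with number 1, whatever treatment the label names. The labels of treatment are therefore contradicted by *Cyp24a1*, no library was moved, and "the library labelled" is meant wherever a treatment is named. Whether the treatment names are attached to the right libraries was not tested, so the sets by number may or may not be sets by treatment, and what their comparisons compare is not known. Over all genes the 9 libraries fell into 4 kinds that cross the treatments. The library labelled 1,25D3 3 lay beside the 3 libraries of number 1, 1,25D3 and ZK 3 lay beside vehicle 3, 1,25D3 and ZK 2 lay beside vehicle 2, and 1,25D3 2 stood alone. The 8 pairs of libraries within a kind had a mean chi-square per gene of 1.85 to 5.61, against 96.4 to 399 for the 28 pairs across kinds, where 1 is sampling noise.

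The promoters of 4 transporters are shown because these genes mark the extremes of the results below. *Slc3a1* and *Slc7a9* are the chains of a single exchanger with unlike orders of the libraries, *Slc7a8* varied most among the libraries, and *Slc36a1* alone was separated by treatment label. Each line gives the 250 bases before a RefSeq transcription start in GRCm38.p6, 5′ to 3′ on the gene's strand, with matches to 7 short motifs in capitals. They are chr17:85028097-85028346 (plus strand), chr7:35448842-35449091 (plus strand, the first of the starts listed for *Slc7a9*), chr14:54781887-54782136 (minus strand) and chr11:55204090-55204339 (plus strand).
Slc3a1: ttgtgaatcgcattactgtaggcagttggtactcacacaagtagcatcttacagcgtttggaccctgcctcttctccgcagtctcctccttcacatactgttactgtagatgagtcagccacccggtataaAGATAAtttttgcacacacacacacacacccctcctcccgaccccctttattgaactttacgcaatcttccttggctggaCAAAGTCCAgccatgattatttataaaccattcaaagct
Slc7a9: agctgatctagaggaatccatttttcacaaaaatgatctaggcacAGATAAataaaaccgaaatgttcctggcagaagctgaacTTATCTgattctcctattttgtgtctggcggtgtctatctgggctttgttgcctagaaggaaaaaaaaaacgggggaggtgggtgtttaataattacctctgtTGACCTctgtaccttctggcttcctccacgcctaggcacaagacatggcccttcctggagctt
Slc7a8: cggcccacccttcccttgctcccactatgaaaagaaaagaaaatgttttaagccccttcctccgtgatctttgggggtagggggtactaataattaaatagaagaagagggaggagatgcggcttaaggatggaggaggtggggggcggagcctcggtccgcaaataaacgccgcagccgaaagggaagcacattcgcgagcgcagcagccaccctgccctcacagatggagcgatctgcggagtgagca
Slc36a1: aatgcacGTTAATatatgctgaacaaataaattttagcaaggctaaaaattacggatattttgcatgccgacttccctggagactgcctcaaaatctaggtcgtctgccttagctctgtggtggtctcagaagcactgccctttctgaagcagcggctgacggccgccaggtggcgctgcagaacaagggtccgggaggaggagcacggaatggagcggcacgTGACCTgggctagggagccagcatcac
Windows of 250 bases before to 50 bases after each start were searched on both strands. The 10 transporter genes have 16 such windows, and the RefSeq table of mouse genes holds 32851 in all. The motif of GATA factors, AGATAA, was in 4 of the 16 transporter windows (3 genes) and 11.2% of all mouse windows. GTTAAT, for HNF1, was in 3 of 16 (3 genes) and 7.1% of all. TTTATG, for CDX, was in 0 of 16 and 11.9% of all. CAAAGTCCA, for HNF4, was in 1 of 16 and 0.475% of all. TGATGNAA, the response element of C/EBP and ATF factors, was in 2 of 16 (both of *Slc7a7*) and 3.97% of all. The single hexamers of the VDR element were GGTTCA, in 3 of 16 (2 genes) and 10.4% of all windows, and likewise the closely related hexamer AGGTCA, in 4 of 16 (3 genes) and 16.3% of all. Windows of 1 gene can overlap. The *Slc3a1* window held AGATAA at position -119 and CAAAGTCCA at -39 from the start, and its GTTAAT match lay at position 2, past the end of the printed stretch. In the windows of *Slc15a1*, *Slc6a19*, *Slc3a2*, *Slc7a8* and *Slc1a1* none of the motifs was found. A match is a description of letters, and its absence says nothing about the factor.

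Compared per length of exon, the neutral amino acid carrier was the most abundant of the transcripts. *Slc6a19* averaged 191.7 TMM CPM per kb over the 9 libraries, followed by *Slc3a1* at 110.4, *Slc7a9* at 88.6, *Slc3a2* at 80.05 and *Slc7a7* at 70.7. *Slc43a2*, *Slc15a1* and *Slc7a8* followed at 49.85, 47.7 and 44.2 TMM CPM per kb, then *Slc36a1* at 11.3 and *Slc1a1* at 3.04. The lowest number of reads behind any value was 524, for *Slc1a1* in the library labelled vehicle 2. Exons of *Slc43a2*, *Slc7a7*, *Slc3a1* and *Slc1a1* overlap a gene on the other strand (*Gm45606*, *Oxa1l*, *Prepl* and *4430402I18Rik*). The sources used here do not say whether strand was used in counting, and the levels of these 4 transporters are uncertain for that reason.

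**Figure D1:**
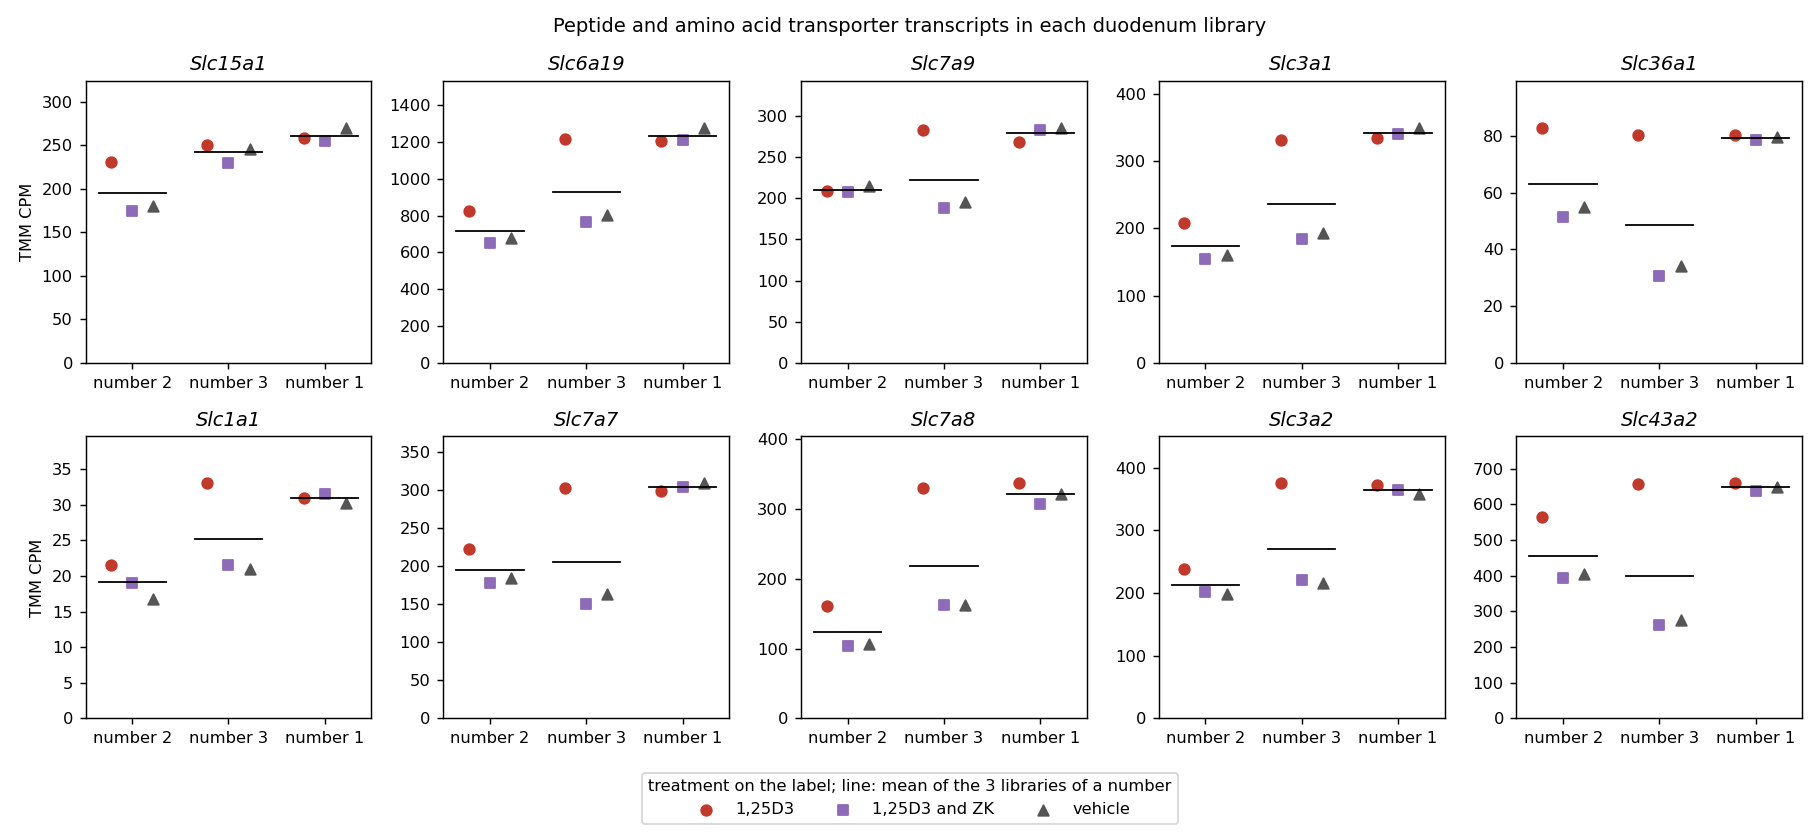
TMM CPM (y axis, from 0) of each transporter in the 9 libraries, grouped by the number on the label (x axis) with the treatment on the label as color and shape; lines are means of 3 libraries. In 9 of the 10 panels the library labelled 1,25D3 2 lies above the other libraries of number 2, and in all 10 the library labelled 1,25D3 3 lies above the other libraries of number 3.

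Apical carriers of peptides and neutral amino acids came first. *Slc15a1* measured 230.5, 174.3 and 180.7 TMM CPM with the labels 1,25D3 2, 1,25D3 and ZK 2, and vehicle 2. It was at 251.0, 229.5 and 245.9 in 1,25D3 3, 1,25D3 and ZK 3, and vehicle 3, and at 258.7, 255.4 and 270.1 in 1,25D3 1, 1,25D3 and ZK 1, and vehicle 1. The peptide carrier thus varied least with *Slc7a9*, with a highest level 1.55-fold above the lowest, and only the number 2 libraries labelled 1,25D3 and ZK and vehicle were clearly low.

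*Slc6a19*, in the same order of treatments, was at 826.2, 651.3 and 680.1 TMM CPM with number 2. The libraries of number 3 had 1219, 764.8 and 802.3, and those of number 1 had 1206, 1211 and 1276. The neutral amino acid carrier was low in 5 libraries and high in the other 4, with no value between 826.2 and 1206.

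The chains of the cystine and cationic amino acid exchanger did not run in parallel. *Slc3a1* was at 208.1, 154.6 and 160.0 TMM CPM with number 2, at 331.9, 183.7 and 193.5 with number 3, and at 334.7, 340.4 and 349.3 with number 1. *Slc7a9* was at 208.8, 207.0 and 214.7 with number 2, at 282.4, 187.7 and 195.1 with number 3, and at 268.5, 283.2 and 285.3 with number 1. Within number 2, *Slc3a1* of the library labelled 1,25D3 was 1.32 times the mean of the other 2 libraries, whereas *Slc7a9* was 0.99 times that mean, the only transporter not above both of them.

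The remaining apical carriers were scarcer. *Slc36a1* was at 82.8, 51.5 and 55.0 TMM CPM with number 2, at 80.45, 30.8 and 34.1 with number 3, and at 80.2, 78.4 and 79.5 with number 1. The 3 libraries labelled 1,25D3 had the highest levels of *Slc36a1* of all 9, within 80.2 to 82.8 TMM CPM. *Slc1a1*, the carrier of acidic amino acids, was at 21.6, 19.0 and 16.8 with number 2, at 33.0, 21.5 and 21 with number 3, and at 31.0, 31.6 and 30.3 with number 1.

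Among basolateral genes, *Slc7a8* varied most, with a highest level 3.26-fold above the lowest. It was at 161.2, 103.4 and 106.3 TMM CPM with number 2, at 329.8, 162.2 and 162.9 with number 3, and at 336.6, 306.7 and 320.8 with number 1. Its heavy chain *Slc3a2* was at 238.5, 201.9 and 197.7 with number 2, at 374.8, 220.0 and 215.5 with number 3, and at 371.8, 364.1 and 358.2 with number 1. Both genes were low in the same 5 libraries, but *Slc3a2* spanned only 1.90-fold.

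*Slc7a7* was at 221.7, 177.2 and 184.2 TMM CPM with number 2, at 302.0, 149.5 and 163.0 with number 3, and at 298.6, 303.5 and 308.2 with number 1. *Slc43a2* was at 564.1, 392.6 and 406.0 with number 2, at 657.7, 263.1 and 275.6 with number 3, and at 658.9, 638.1 and 649.0 with number 1. For these basolateral carriers, unlike *Slc7a8* and *Slc3a2*, the lowest libraries were those labelled 1,25D3 and ZK 3 and vehicle 3.

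The transporters thus fell into a pair of orders. In 6 of the 10 (*Slc15a1*, *Slc6a19*, *Slc3a1*, *Slc3a2*, *Slc7a8* and *Slc1a1*), the libraries labelled 1,25D3 and ZK 2 and vehicle 2 were both below those labelled 1,25D3 and ZK 3 and vehicle 3. In the other 4 (*Slc7a9*, *Slc7a7*, *Slc36a1* and *Slc43a2*) they were both above them. The mean of 1,25D3 and ZK 2 and vehicle 2 was 32.6% (*Slc7a8*) to 75.6% (*Slc7a9*) of the number 1 mean. The mean of 1,25D3 and ZK 3 and vehicle 3 was 40.9% (*Slc36a1*) to 90.9% (*Slc15a1*) of it. The library labelled 1,25D3 3 was at 96.0% to 107% of the number 1 mean for all 10 genes, and within the range of the number 1 libraries for 5. The 3 libraries of number 1 differed among themselves by 2.26% (*Slc36a1*) to 9.30% (*Slc7a8*) of their mean.

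Heavy and light chains were also compared as ratios of TMM CPM per kb, as a description without a test. *Slc3a1* over *Slc7a9* was 1.17, 0.88 and 0.878 in the libraries labelled 1,25D3, 1,25D3 and ZK, and vehicle with number 2, 1.39, 1.15 and 1.17 with number 3, and 1.47, 1.42 and 1.44 with number 1. *Slc3a2* over *Slc7a8* was 2.1, 2.77 and 2.64 with number 2, 1.61, 1.92 and 1.88 with number 3, and 1.57, 1.68 and 1.58 with number 1. *Slc3a2* over *Slc7a7* stayed between 1.01 and 1.38 in all 9 libraries, with the highest values in 1,25D3 and ZK 3 and vehicle 3. The heavy chain of the apical exchanger was hence lowest relative to its light chain where the heavy chain of *Slc7a8* was highest relative to its own.

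**Figure D2:**
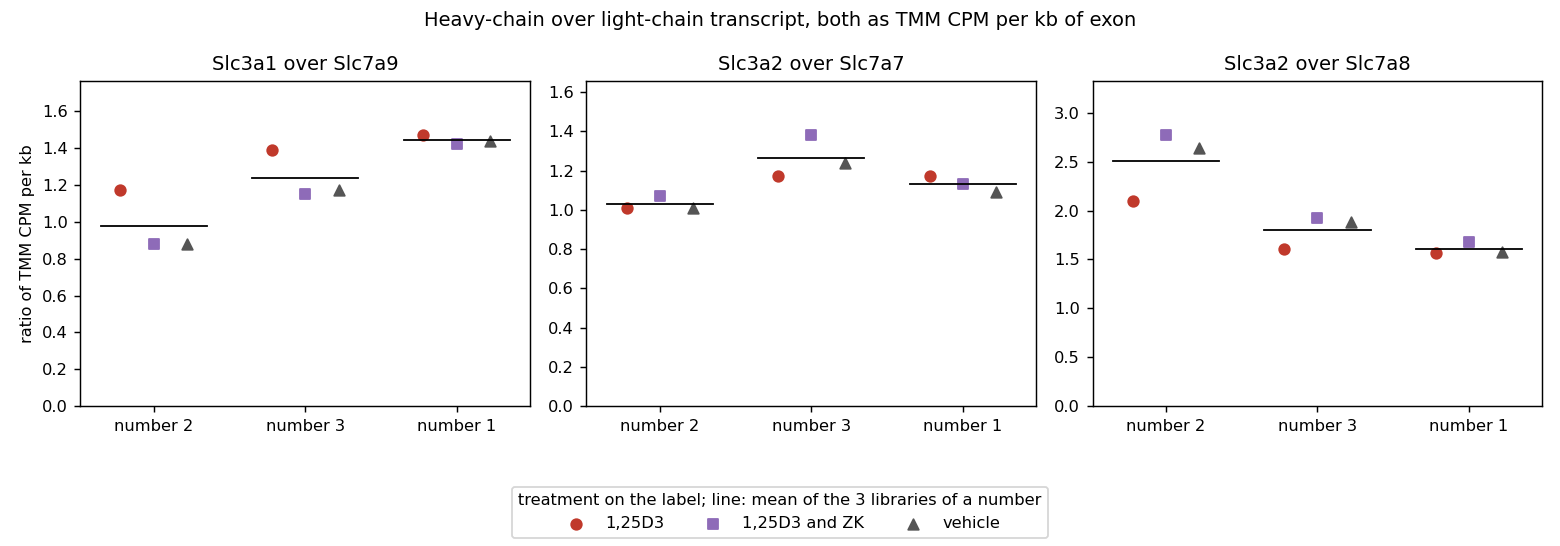
Ratio of heavy-chain to light-chain transcript in TMM CPM per kb of exon (y axis, from 0) for 3 pairs, in the 9 libraries by label number (x axis) and treatment label (color and shape), with lines for means of 3 libraries. *Slc3a1* over *Slc7a9* is lowest, 0.88 and 0.878, and *Slc3a2* over *Slc7a8* highest, 2.77 and 2.64, in the libraries labelled 1,25D3 and ZK 2 and vehicle 2.

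The comparison by treatment label was meant to ask whether 1,25D3 changed the transporters and whether ZK prevented it. Because *Cyp24a1* contradicts these labels, it cannot answer that, and its results describe the labels only. No transporter passed the test between the labels 1,25D3 and vehicle. All 10 fold changes were positive, with a median log2 fold change of 0.33 against -0.01 over the 15002 genes tested with edgeR's quasi-likelihood test. A gene was called when its p, adjusted by Benjamini-Hochberg, was under 0.05 and its log2 fold change was beyond 0.58 in either direction. Called were 0 of the 10 transporters and 0 of 15002 genes (0%). At an unadjusted p under 0.05 there were 0 transporters and 135 genes (0.900%) with edgeR, and 89 genes with DESeq2, which also called 0.

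*Slc36a1* averaged 81.1 ± 1.42 TMM CPM with the label 1,25D3, 53.55 ± 23.9 with 1,25D3 and ZK, and 56.2 ± 22.7 with vehicle (SD, n = 3 each). It was the only transporter whose libraries labelled 1,25D3 did not overlap those labelled vehicle, and its log2 fold change was 0.53 (95% interval -0.30 to 1.36). All libraries labelled 1,25D3 above all labelled vehicle was found for 1.58% of the genes tested. *Slc43a2* averaged 626.9 ± 54.4 with 1,25D3, 431.3 ± 190.5 with 1,25D3 and ZK, and 443.5 ± 189.5 TMM CPM with vehicle, overlapping by the high number 1 libraries. *Slc7a8* had a log2 fold change of 0.49 (-0.68 to 1.65), *Slc3a2* of 0.35 (-0.37 to 1.08) and *Slc15a1*, the smallest, of 0.09 (-0.36 to 0.53), for 1,25D3 against vehicle. These intervals include both no change and changes over the called size, except that the lower bounds of all but *Slc7a8* stayed above -0.58 and the upper bound of *Slc15a1* below 0.58.

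For 1,25D3 and ZK against vehicle the fold changes of the transporters were small. The log2 fold changes ran between -0.08 (*Slc15a1*) and 0.08 (*Slc1a1*), 2 positive and 8 negative, with a median of -0.05 against 0 over all genes. Called were 0 of 10 transporters and 0 of 15002 genes (0%), with 0 transporters and 24 genes (0.160%) at an unadjusted p under 0.05 with edgeR and 7 genes with DESeq2, which also called 0. The libraries of these labels with the same number resembled each other, so that their spread within a label was wide and the interval for *Slc7a8* still reached -1.21 to 1.12. A fit of these 6 libraries alone that blocked on the label number called 0 transporters and 2 genes of 14332, and 6 transporters and 1513 genes (10.6%) had an unadjusted p under 0.05. Its intervals were narrower, -0.09 to 0.02 for *Slc7a8* and -0.11 to -0.03 for *Slc6a19*, which had the lowest adjusted p of the transporters, 0.131. Compared within each number, the library labelled 1,25D3 and ZK was below that labelled vehicle in all 3 pairs for 8 transporters and above it in all 3 for *Slc3a2* and *Slc1a1*. The same sign in all 3 pairs was found for 31.4% of the 15002 genes.

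For 1,25D3 and ZK against 1,25D3 all 10 fold changes were negative, with a median log2 fold change of -0.35 against 0.01 over all genes. Called were again 0 of 10 transporters and 0 of 15002 genes (0%), with 0 transporters and 147 genes (0.980%) at an unadjusted p under 0.05 with edgeR, and 95 genes with DESeq2, which also called 0. *Slc36a1*, with a log2 fold change of -0.60 (95% interval -1.43 to 0.23), was again the only transporter without overlap, a separation found in this direction for 1.73% of genes. *Slc43a2* had a log2 fold change of -0.54 and *Slc7a8* of -0.53. This comparison shares its 1,25D3 libraries with the first and its 1,25D3 and ZK libraries with the second, so the 3 sets of values are not independent.

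**Figure D3:**
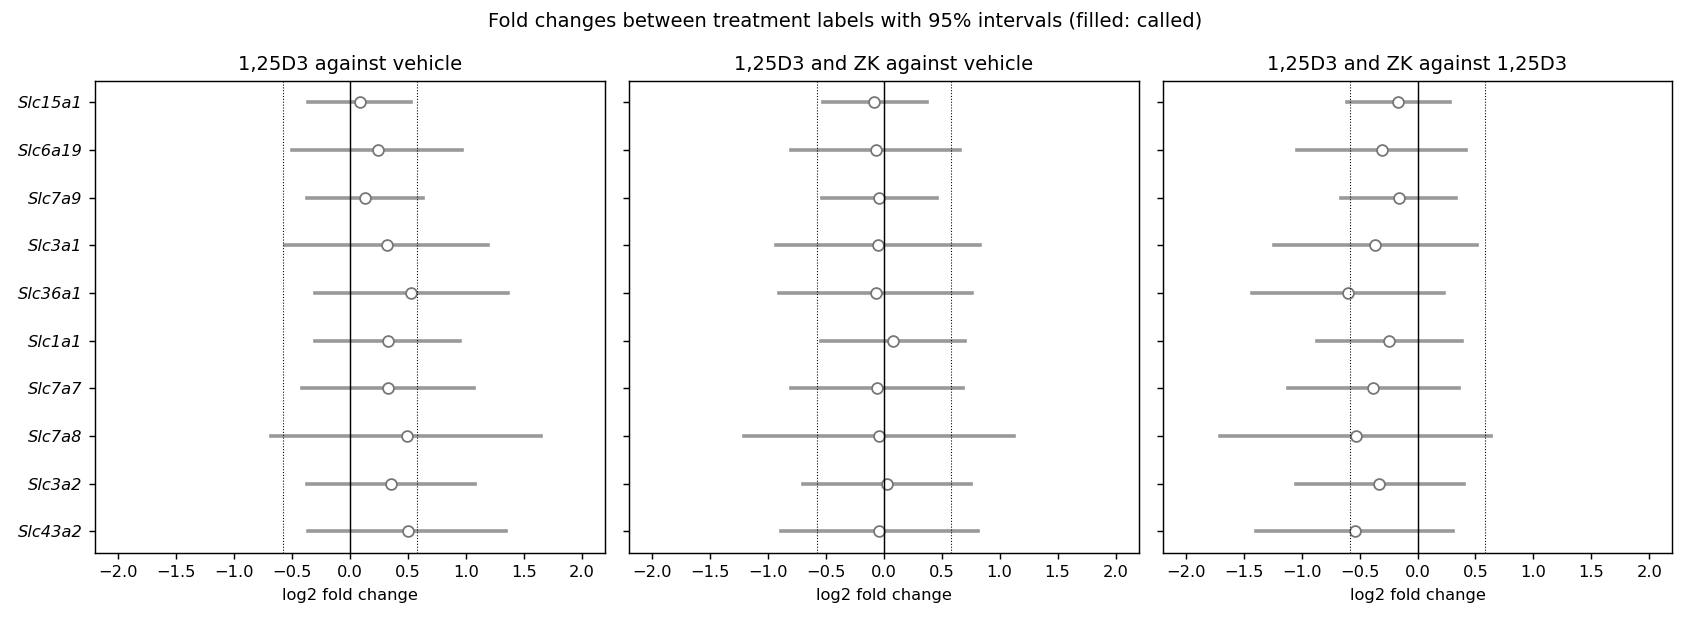
Log2 fold change (x axis) of each transporter (rows) between treatment labels from edgeR, with 95% intervals; dotted lines mark 0.58 either way and no point is filled because none was called. All 10 points lie right of 0 for 1,25D3 against vehicle and left of it for 1,25D3 and ZK against 1,25D3.

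By the number on the label, transporters were lower with number 2 than with number 1. In this comparison 5 of the 10 were called lower and 0 higher, while 1237 of the 15002 genes (8.25%) were called lower and 1830 (12.2%) higher, 20.4% either way. At an unadjusted p under 0.05 there were 8 transporters and 7131 genes (47.5%). The median log2 fold change was -0.67 over the transporters and 0.03 over all genes. *Slc7a8* fell to 123.6 ± 32.6 TMM CPM with number 2, against 321.4 ± 15.0 with number 1 (SD, n = 3 each), a log2 fold change of -1.38 with a standard error of 0.28 and an adjusted p of 0.00397. *Slc3a1* fell to 174.2 ± 29.5, against 341.5 ± 7.37 with number 1, a log2 fold change of -0.97 ± 0.21 (SE, adjusted p = 0.00629). *Slc6a19* and *Slc3a2* had log2 fold changes of -0.78 each (adjusted p = 0.00851 and 0.0116) and *Slc1a1* of -0.69 (adjusted p = 0.00893).

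The other 5 transporters were not called. *Slc7a7* missed the threshold, with a log2 fold change of -0.64 and an adjusted p of 0.0503. *Slc15a1* (-0.42, adjusted p = 0.0144) and *Slc7a9* (-0.41, adjusted p = 0.0443) passed the p but were under the fold size. *Slc43a2* (-0.51, 95% interval -1.22 to 0.19) and *Slc36a1* (-0.33, -1.06 to 0.40) passed neither threshold. Their levels in the library labelled 1,25D3 2 were 87.0% and 104% of the number 1 means. The libraries of number 2 lay below all those of number 1 for 9 of the 10 transporters, all but *Slc36a1*, an arrangement found for 30.0% of the genes tested. Without the libraries labelled 1,25D3 2 and 1,25D3 3, a choice made after their values were seen, 8 transporters and 1510 of 14571 genes (10.4%) were called lower, with 2120 genes called higher, and the log2 fold change of *Slc36a1* was -0.58 and of *Slc43a2* -0.71.

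**Figure D4:**
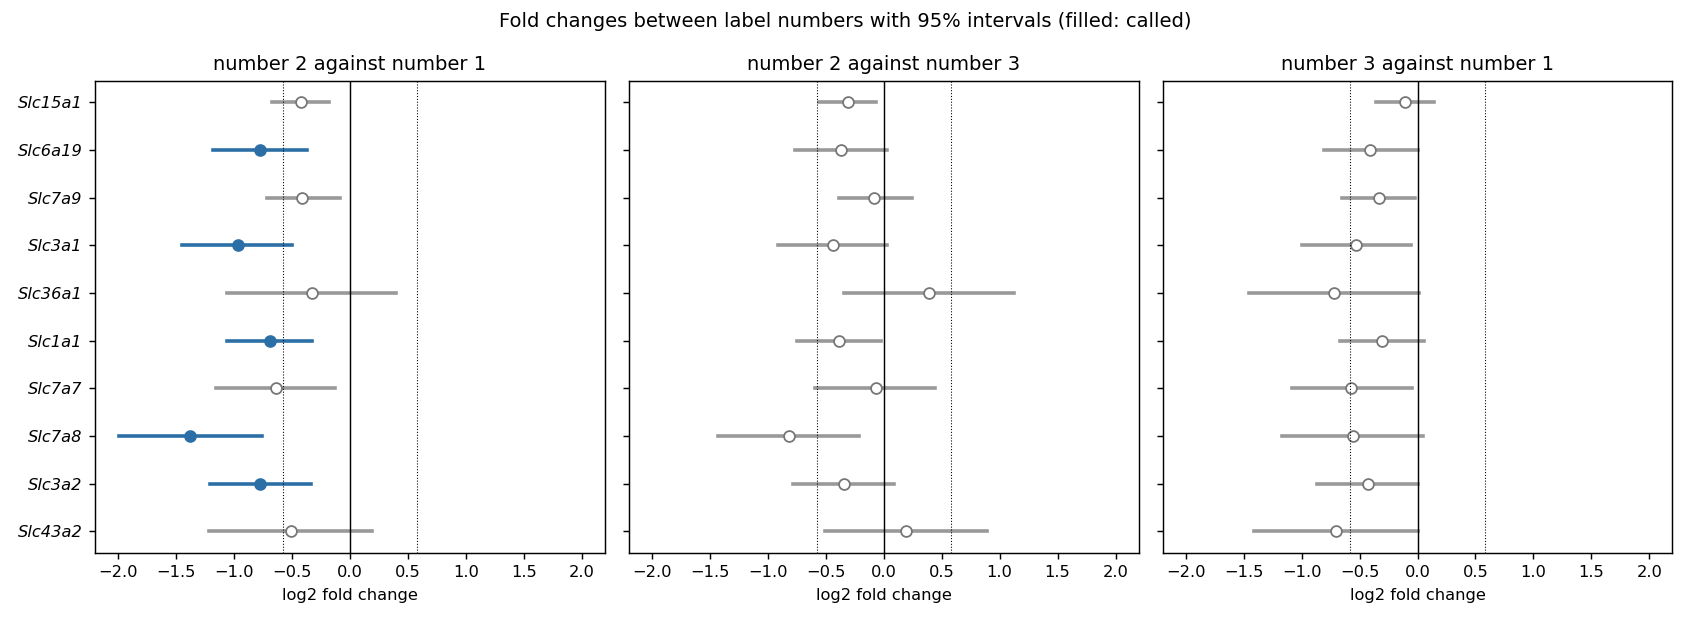
Log2 fold change (x axis) of each transporter (rows) between label numbers from edgeR, with 95% intervals; dotted lines mark 0.58 either way and filled points were called. Number 2 against number 1 holds all 5 filled points, the farthest being *Slc7a8* at -1.38.

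Between numbers 2 and 3, 0 of the 10 transporters were called, where 11.3% of the genes tested were (680 lower, 4.53%, and 1022 higher, 6.81%). At an unadjusted p under 0.05 there were 3 transporters and 5326 genes (35.5%) with edgeR, and DESeq2 called 1 transporter lower, *Slc7a8* (log2 fold change -0.83), as it did 4.91% of genes. In edgeR *Slc7a8* was at 123.6 ± 32.6 TMM CPM with number 2 and 218.3 ± 96.6 with number 3, a log2 fold change of -0.82 with an adjusted p of 0.0555. It was the only transporter with all libraries of number 2 below those of number 3, which 17.9% of the genes tested showed. *Slc36a1* (0.39) and *Slc43a2* (0.19) were the only positive ones. These values depended on the library labelled 1,25D3 3. Without it, *Slc36a1* and *Slc43a2* were called higher with number 2, by log2 fold changes of 0.96 and 0.75 with adjusted p of 0.00058 and 0.00056 (9.09% of genes were called higher), and *Slc7a8* had a log2 fold change of -0.39.

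Between numbers 3 and 1, 0 transporters and 0 of 15002 genes (0%) were called by edgeR. At an unadjusted p under 0.05 there were 5 transporters and 3940 genes (26.3%), and DESeq2 called 398 genes. All 10 log2 fold changes were negative, from -0.72 (*Slc36a1*) to -0.11 (*Slc15a1*), with a median of -0.48 against 0.01 over all genes. All libraries of number 3 lay below those of number 1 for *Slc15a1* and *Slc3a1*, an arrangement that 8.61% of the genes tested showed. The count again depended on the library labelled 1,25D3 3. Without it, 7 transporters and 7.71% of genes were called lower, of 2850 genes called either way, with log2 fold changes of -1.29 for *Slc36a1*, -1.27 for *Slc43a2*, -0.98 for *Slc7a8*, -0.96 for *Slc7a7*, -0.86 for *Slc3a1*, -0.74 for *Slc3a2* and -0.65 for *Slc6a19*. *Slc7a9* (-0.54), *Slc1a1* (-0.54) and *Slc15a1* (-0.14) were not called. Comparisons with number 1 share its libraries.

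Markers of cell types differed between the libraries, though not by number alone. In the ranges below, the pan-epithelial maximum of number 3 (19090) is the library labelled 1,25D3 3. The acinar minimum of number 3 (117.5) is the same library. Pan-epithelial transcripts (12 genes) summed to 13920 to 15240 TMM CPM with number 2, 13190 to 19090 with number 3 and 18320 to 18910 with number 1, and mature enterocyte transcripts (15 genes) to 42250 to 46470, 42930 to 62520 and 61290 to 62140. Summed over the 10 transporters, levels were 2133 to 2763, 2213 to 3862 and 3812 to 3927 TMM CPM in the same order. Between numbers 2 and 1, 6 of the 15 mature enterocyte genes were called lower and 0 higher, against 5 and 0 of the 10 transporters. For this and the lists that follow, the shares over all genes were 8.25% lower and 12.2% higher. The median log2 fold change was -0.54 for these enterocyte genes and -0.67 for the transporters. Libraries of number 2 lay below all those of number 1 for all 15 enterocyte genes and for 9 of the transporters. Of the 12 pan-epithelial genes, 2 were called lower and 0 higher, with a median of -0.15. In bulk tissue, fewer cells of a type and less RNA per cell cannot be told apart. Pancreatic acinar transcripts (19 of 21 listed genes tested) summed to 10090 to 48370 with number 2, 117.5 to 4382 with number 3 and 108.2 to 125.1 with number 1, where *Try10* and *Amy2a5* were at 0. Brunner gland and stomach transcripts (8 genes) summed to 6801 to 8344, 10.3 to 130.1 and 7.751 to 9.185, with none at 0 in all libraries of a number. All 19 acinar and all 8 Brunner gland and stomach genes were called higher with number 2 than with number 1. Fibroblast transcripts (9 genes, 7 called higher with number 2 than with number 1) summed to 319.0 to 331.0, 210.6 to 382.4 and 201.9 to 204.0. Endothelial transcripts (9 genes, 2 called higher) summed to 106.6 to 121, 99.29 to 135.4 and 97.04 to 97.32. The sums of the smooth muscle, immune and ileum lists were lower with number 2 than with number 1, as the epithelial sums were. So were those of the crypt and cycling, partner, other transporter and amino acid response lists described further below. Smooth muscle transcripts (10 genes, 3 called lower with number 2 than with number 1) summed to 1380 to 1492, 1324 to 1883 and 1773 to 1881, and immune transcripts (11 genes, 2 called lower and 3 higher) to 4386 to 5321, 6695 to 8017 and 8000 to 8056. Most of the immune sum was *Jchain* (2736 to 3173 with number 2, against 4830 to 4952 with number 1) and *Cd74* (1316 to 1789, against 2818 to 2895). Of the 11 immune genes, 7 had negative and 4 positive log2 fold changes, the latter including *Cd79b* (23.37 to 25.85, against 9.352 to 9.593). The ileum list (5 genes, 3 called lower) summed to 1481 to 1769, 1795 to 2747 and 2769 to 2896. The part of these cell types in the transporter results was not tested. Removing the acinar genes from the table left the 5 calls between numbers 2 and 1 and added *Slc7a7*, where 8.38% of genes were called lower. That step takes out rows and not the cells or their share of the sample, so it cannot decide the question.

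When libraries were scaled to the summed reads of the 12 pan-epithelial genes instead, abundant genes weighed most. With TMM, 3 of these 12 genes had positive and 9 negative log2 fold changes for number 2 against number 1, with a median of -0.15. *Lgals4* was at 3149 to 3218 TMM CPM with number 2, against 4624 to 4813 with number 1. *Epcam* was at 729.4 to 769.9, against 772.2 to 810.3. On the pan-epithelial scale the median of all genes for number 2 against number 1 was 0.40. On that scale 397 genes (2.65%) were called lower and 3886 higher, and 2 transporters were called lower, *Slc3a1* (log2 fold change -0.61) and *Slc7a8* (-1.02). There *Slc6a19* and *Slc3a2* had log2 fold changes of -0.41 each and *Slc1a1* of -0.33, and *Slc36a1* changed sign, to 0.03. Per 1000 pan-epithelial TMM CPM, *Slc7a8* was at 10.6, 7.43 and 7.59 in the libraries labelled 1,25D3 2, 1,25D3 and ZK 2, and vehicle 2, against 17.8, 16.8 and 17.4 in 1,25D3 1, 1,25D3 and ZK 1, and vehicle 1. *Slc7a9* was at 13.7, 14.9 and 15.3 with number 2, against 14.2, 15.5 and 15.5 with number 1, so that its groups overlapped. Villus position markers also differed, with TMM, where 8.25% of all genes were called lower and 12.2% higher with number 2 than with number 1. Transcripts of the villus tip (10 genes, 6 called higher with number 2 than with number 1) summed to 24350 to 25240 with number 2, 13140 to 13840 with number 3 and 12710 to 13600 with number 1. Those of the villus base (9 of 10 listed genes tested, 2 called higher and 1 lower) summed to 16510 to 18980, 10960 to 15210 and 15230 to 15870, with a median log2 fold change of -0.30 for number 2 against number 1. Crypt and cycling transcripts (11 genes, 2 called lower) summed to 365.5 to 392.1, 488.5 to 744.6 and 489.6 to 501.4. Their part in the transporter results was not tested either.

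**Figure D5:**
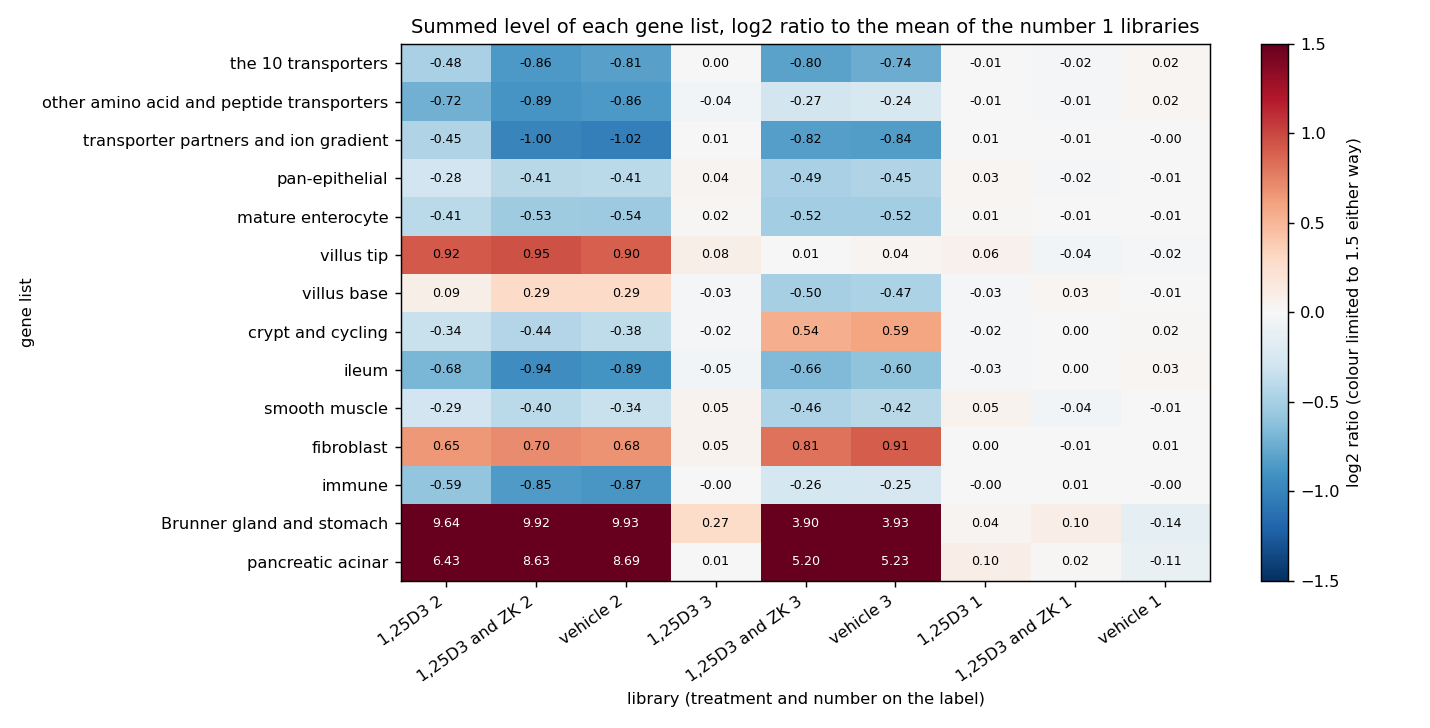
Summed TMM CPM of each gene list (rows) in each library (columns, by label), as log2 ratio to the mean of the 3 number 1 libraries; color is limited to 1.5 either way and the value is written in each cell. The 10 transporters, their partners and the pan-epithelial and mature enterocyte lists are below 0 in the same 5 libraries in which acinar and Brunner gland lists are far above it. The sums of other transporters, ileum, smooth muscle and immune genes are below 0 in these 5 libraries as well. Of 26 other transporters, 18 had positive log2 fold changes for number 2 against number 1 and 8 negative ones.

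The partners and ion gradients on which the carriers depend were read from a list of 7 genes, of which 2 were called lower and 0 higher with number 2 than with number 1. The shares over all genes tested were 8.25% lower and 12.2% higher. *Atp1b1*, the beta subunit of the basolateral sodium pump, was at 1436 to 1684 TMM CPM with number 2, against 2455 to 2487 with number 1. *Anpep*, the brush border aminopeptidase that releases amino acids beside *Slc6a19*, was at 1597 to 3324 with number 2, against 5051 to 5082 with number 1. The log2 fold changes were -0.70 for *Atp1b1* (adjusted p = 0.011) and -1.21 for *Anpep* (adjusted p = 0.0232). *Slc9a3*, the sodium-proton exchanger behind peptide uptake, was at 94.75 to 104.6 with number 2, against 90.5 to 92.4 with number 1, and was not called. The scaffolds *Pdzk1*, *Slc9a3r1* and *Slc9a3r2* had log2 fold changes of -0.33, -0.14 and 0.43 and *Tmem27*, the renal partner of *Slc6a19*, stayed at 1.25 TMM CPM or below in all libraries. Between numbers 2 and 3, *Tmem27* was called higher and 0 of the 7 lower, where 6.81% of all genes were called higher and 4.53% lower. In the treatment comparisons and between numbers 3 and 1, 0 of these 7 were called.

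Of 29 other amino acid and peptide transporters listed, 26 were tested, and with number 2 against number 1 there were 6 called higher and 5 lower. Over all genes tested, 12.2% were called higher and 8.25% lower. Among the 26, 18 had positive and 8 negative log2 fold changes, with a median of 0.30. The 6 with the highest mean level were described further. *Slc6a20a*, the carrier of proline, was at 75.35, 52.7 and 48.3 TMM CPM with number 2, at 244.5, 189.7 and 191.2 with number 3, and at 242.8, 242.7 and 251.3 with number 1 (1,25D3, 1,25D3 and ZK, and vehicle each time). Its log2 fold change was -2.06 for number 2 against number 1 and -1.83 for number 2 against number 3, both called, with adjusted p of 2.25e-05 and 5.49e-05. *Slc16a10*, the basolateral carrier of aromatic amino acids, was at 48.05 to 78.3 with number 2, against 183.3 to 195.2 with number 1, a log2 fold change of -1.69 (adjusted p = 0.00256). *Slc6a6*, the taurine carrier, was at 121.9 to 146.7 with number 2, against 222.9 to 223.9 with number 1 (log2 fold change -0.75, adjusted p = 0.000181). *Slc38a1* (0.53), *Slc38a2* (0.02) and *Slc7a1* (-0.30), which supply many cell types with amino acids, were not called.

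Among 23 genes of the cellular response to amino acid shortage, 7 were called higher and 1 lower with number 2 than with number 1. Of all genes tested, 12.2% were called higher and 8.25% lower. The 3 of highest level, the transfer RNA synthetases *Nars*, *Gars* and *Sars*, were not called, with log2 fold changes of -0.54, -0.01 and -0.22. Chosen after their values were seen, *Ddit3* was at 13.01 to 14.9 TMM CPM with number 2, against 4.51 to 5.14 with number 1, and *Atf4*, the transcription factor of this response, at 99.3 to 115.9, against 60.0 to 62.1. Chosen in the same way, *Asns*, *Psat1* and *Shmt2* went the other way. They were at 39.26 to 46.74, 18.25 to 22.49 and 29.54 to 33.55 with number 2, against 57.65 to 60.77, 33.58 to 36.37 and 46.22 to 49.6 with number 1. Over the list, the sum was 885.1 to 933.1 with number 2 and 953.5 to 967.9 with number 1, and its median log2 fold change was -0.01, with 11 positive and 12 negative. Between numbers 2 and 3, 7 were called higher and 0 lower, where 6.81% of all genes were called higher and 4.53% lower.

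Genes with the most similar pattern were sought by the root mean square distance of log2 (TMM CPM + 1), centred on each gene's mean, over the 9 libraries and 5828 genes with a mean of at least 20 TMM CPM. Nearest to *Slc15a1* were *Pi4ka*, *Sdha*, *Nbas* and *Coro7*, at distances of 0.045 to 0.054. Nearest to *Slc3a1* was *Dpp4*, a brush border peptidase, at 0.028, followed by *Nek6*, *Pm20d1* and *Soat2*. Nearest to *Slc3a2* were *Smim24* at 0.028, *Sqor*, *Tpi1* and *Cdhr5*. *Dpp4* ranged between 275.2 and 630.1 TMM CPM over the libraries, where *Slc3a1* ranged between 154.6 and 349.3.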

How the data were processed

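Duodenum RNA of 9 mice was read from 1 end after a stranded mRNA library preparation. The authors called bases (bcl2fastq 2.17.1.14), removed adapter dimers, aligned reads to mm10 (Tophat, Bowtie2), kept unique alignments and counted them per gene (HTSeq). No strand setting or annotation release is given in the sources used here. The deposited table holds raw counts, in columns headed by digits that match the sample descriptions.

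The 15002 genes that exceeded 100 reads over all libraries were scaled by TMM and tested with edgeR 4.0.16 in R 4.3.3 (quasi-likelihood test, all 9 libraries, no block), with 1 mean per treatment label or, in a separate fit, per label number. P-values were adjusted by Benjamini-Hochberg over all genes. Standard errors are log2 fold changes divided by the root of F. P-values measure the spread between libraries, which need not be that between mice of a treatment, since *Cyp24a1* contradicts the labels. Libraries of the same kind also lay close together, at a mean chi-square per gene of 1.85 to 5.61, against 96.4 to 399 across kinds. Whether the libraries of a number vary as separate mice would was not tested. The fit was tested on simulated data of independently drawn libraries. These lack the kinds of library found here, so that test says nothing about the p-values in their presence. DESeq2 1.42.0, other scalings and filters, a block by label number, and leaving out each library were alternatives.

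Same-numbered libraries labelled 1,25D3 and ZK and vehicle deviated together (correlations 0.94, 0.96 and 0.91), although no label states a pairing. The main test of this comparison was unpaired. On the evidence of the data, a fit of its 6 libraries that blocked on the label number was added as an alternative. In the other comparisons 1 of 3 pairs did not deviate together.

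Symbols, lengths and overlaps come from GENCODE M21 (GRCm38, which is mm10; 48349 identifiers matched), and promoters from RefSeq GRCm38.p6. The members, lists, label-number groups and motifs were chosen with earlier results of these data known. Genes were named by rule: all 10 members, all partners, the 6 and 3 of highest mean in the other transporter and amino acid response lists, and 4 of like pattern for each of 3 members; exceptions are stated. Of the partners, 2 listed genes are not reported here and stay out of the list's counts and sums.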

Additional observations from a re-analysis of the deposited data

How the results depend on the processing

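Between numbers 2 and 1, 2 transporters were called with pan-epithelial scaling (397 genes lower, 3886 higher) and 8 without the libraries labelled 1,25D3 2 and 1,25D3 3 (chosen after seeing the data; 1510 genes lower, 2120 higher), against 5; leaving out 1 library gave 4 to 6, the loss being *Slc3a2* without vehicle 2. Genes called there were 3067, but 1975 with more than 1000 reads and 5751 with no minimum fold, and 2368 to 3441 with 1 library left out. Between numbers 2 and 3, 1 transporter was called (*Slc7a8*) with DESeq2, no read filter, pan-epithelial scaling or treatment label as a term, 2 without both libraries and 0 to 2 with 1 left out. Genes called there were 1702, but 3475 with no minimum fold and 2622 without both libraries. Between numbers 3 and 1, 398 genes were called by DESeq2, 467 with no read filter and 2972 without both libraries, with 7 transporters in the last. Leaving out 1 library gave 0 to 7 transporters and 0 to 2850 genes, above 0 only without 1,25D3 3.

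With pan-epithelial scaling, where the median of all genes was 0.34 for number 3 against number 1 (0.01 with TMM), -0.23 for 1,25D3 against vehicle (-0.01) and 0.25 for 1,25D3 and ZK against 1,25D3 (0.01), log2 fold changes became -0.12 for *Slc15a1* and -0.08 for *Slc7a9* (1,25D3 against vehicle), 0.06 for both (1,25D3 and ZK against 1,25D3), 0.03 for *Slc36a1* (numbers 2 and 1), 0.02 for *Slc7a9* and 0.05 for *Slc7a7* (numbers 2 and 3), and 0.20 for *Slc15a1* (numbers 3 and 1). Without both libraries, *Slc7a9* was at 0.14 and *Slc7a7* at 0.21 between numbers 2 and 3. With 1 library left out, ranges that crossed 0 were -0.06 to 0.21 for *Slc15a1* (1,25D3 against vehicle) and, between numbers 2 and 3, -0.18 to 0.14 for *Slc7a9*, -0.26 to 0.32 for *Slc7a7* and -0.04 to 0.75 for *Slc43a2*. For 1,25D3 and ZK against vehicle they were -0.23 to 0.06 for *Slc15a1*, -0.38 to 0.24 for *Slc6a19*, -0.23 to 0.14 for *Slc7a9*, -0.47 to 0.36 for *Slc3a1*, -0.42 to 0.27 for *Slc7a7*, -0.29 to 0.34 for *Slc3a2*, -0.57 to 0.50 for *Slc7a8*, -0.45 to 0.26 for *Slc36a1*, -0.16 to 0.34 for *Slc1a1* and -0.44 to 0.34 for *Slc43a2*. With the replicate block in the 6 libraries of 1,25D3 and ZK and vehicle, 2 genes were called and 0 transporters; the block changed no other call between treatments. No alternative gave a called transporter between treatments. The causes were not tested.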
